A study of Mus musculus with 18 samples.

Results

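RNA of the proteasome and of the main protein-folding chaperones was described in mouse CD4 T cells across 6 groups of 3 libraries. The set was chosen by name. It holds the 58 genes whose symbols begin with Psma, Psmb, Psmc, Psmd, Psme or Psmg or name a CCT, Hsp60, Hsp10, Hsp70 or Hsp90 gene of a fixed list, without the immunoproteasome genes Psmb8, Psmb9 and Psmb10, and 2 genes, Psmc3ip and Psme3ip1, that enter through their prefix alone. These 60 genes stand among 27179 listed genes. They comprise 8 genes of the alpha ring and 8 of the beta ring of the 20S core, 6 ATPase and 11 non-ATPase genes of the 19S cap, 4 activators, 7 assembly factors, 8 CCT subunits, both genes of the mitochondrial chaperonin and 4 Hsp70 and Hsp90 genes.

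The cells were naive CD4 T cells of mice whose Maf gene is floxed on both alleles. Some of the mice also carry the CD4Cre transgene, which expresses Cre recombinase in T cells. They were activated for 3.5 days with antibodies against CD3 and CD28 fixed to the plate, sorted by flow cytometry, and read by 3′ mRNA sequencing, which counts transcripts from their polyadenylated end. The groups are the 6 pairs of a genotype label, CD4Cre- Maf fl/fl or CD4Cre+ Maf fl/fl, and a treatment, TfhA, Tfh1 or Tfh5. The composition of the treatments, the age of the mice and the part of Maf that is floxed are not given in the sources used here. Replicates are numbered 2, 4 and 5 in each group with the Cre-negative label and 1, 3 and 6 in each group with the Cre-positive label, and values of 3 libraries are given in that order throughout. The labels do not tie these numbers to animals. The p-values therefore cover the variation among the sequenced samples, and this variation may be technical only.

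The floxed gene went against the labels. Maf had 17.33 counts over the 9 libraries labelled Cre-negative and 12405 over the 9 labelled Cre-positive, and its highest level in the former, 2.03 CPM, lay below its lowest in the latter, 5.03 CPM. A deletion in Cre-positive cells would give the opposite direction, and where the 3′ reads lie relative to the floxed part was not tested. Every genotype difference below is therefore a difference between the libraries labelled Cre-positive and those labelled Cre-negative, and its direction rests on labels that Maf contradicts. CPM are counts scaled to a common library size with TMM factors, which centre the bulk of the genes. Total counts were 6424874 to 9236153 per library, of which the 60 genes took 1.42% to 2.29% once the 2 most abundant unnamed identifiers were set aside. All 9 T cell markers were above 0 in every group, and their summed level ran from 1966 to 3965 CPM per library. The summed markers of B cells, NK cells, CD8 T cells, myeloid cells and erythroid cells stayed at or below 31.4, 20.9, 7.84, 7.1 and 5.0 CPM. Summed B cell markers were at 15.8 to 25.1 CPM in Cre-negative Tfh1 and 0.0 to 0.163 in Cre-positive Tfh1, and at 2.71 to 11.0 and 0.0 to 1.82 CPM in Tfh5. These sums rest on few genes. Of the 8 B cell markers, 5 were at 0 in all Cre-negative Tfh1 libraries and 7 in all Cre-negative Tfh5 libraries. Only 1 of the 8 had enough counts to be tested. In bulk RNA, fewer cells of a type and less RNA per cell cannot be told apart.

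The proteasome degrades proteins tagged with ubiquitin. Its 20S core is a stack of alpha and beta rings that holds the protease sites inside, its 19S cap carries ubiquitin receptors and the ring of ATPases that unfolds and threads the substrate, and activators can take the place of the cap. The CCT complex folds actin and tubulin in the cytosol, Hsp60 (Hspd1) and its lid Hsp10 (Hspe1) fold proteins inside mitochondria, and Hsp70 and Hsp90 hold and mature client proteins, among them kinases and receptors. T cells that leave rest and divide after activation enlarge their protein synthesis, folding and breakdown.

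Of the 60 genes, 56 passed the filter on low counts. The other 4 were Psmg2, listed at 0 in all 18 libraries, which allows up to 3 counts, Psmb11, a thymus-specific subunit with 2.11 counts in all, Psma8, a subunit of the testis with 20 counts, and Psmc2, with 80 counts in 7 libraries. Other members were close to that floor although they belong to complexes whose other subunits were abundant. Psmc6 had 228.25 counts over 18 libraries, Cct6a had 416.5, and Hspa8, the constitutive cytosolic Hsp70, had 1196.19, of which parts were fractional in 17 libraries. Fractional values occurred in all 18 libraries for Hsp90aa1, Hsp90ab1, Hspd1, Hspe1 and Psmb1, and their source was not tested. The levels of these genes and of Hspa8 are uncertain where reads could be split with close copies or overlapping genes. The listed spans of Hspd1 and Hspe1 overlap at their 5′ ends. Where their reads lie, and whether this overlap has a part in their fractional counts, was not tested.

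Promoter windows of 300 bases, from 250 before to 50 after the annotated start, were read from RefSeq on the build GRCm38.p6 for 47 of the 60 genes. 5 are printed because their genes carry differences described below, and the first pair because the printed windows of Hspd1 and Hspe1 share 285 of their 300 bases on opposite strands. Hspd1 has a further annotated start, whose window shares 4 bases with that of Hspe1 and is not printed. Each is written 5′ to 3′ on the strand of its gene. Capitals mark the letters GAANNTTC and TTCNNGAA, the paired units of a heat shock element, CCAAT, the core letters of an NF-Y site, and CCGGAAG, the core letters of an ETS site, on either strand. The window of Psmd8, also a called member, holds none of these letters and is not printed. Windows of the remaining called members are not printed either.
Hspd1, chr1:55087883-55088182, minus strand: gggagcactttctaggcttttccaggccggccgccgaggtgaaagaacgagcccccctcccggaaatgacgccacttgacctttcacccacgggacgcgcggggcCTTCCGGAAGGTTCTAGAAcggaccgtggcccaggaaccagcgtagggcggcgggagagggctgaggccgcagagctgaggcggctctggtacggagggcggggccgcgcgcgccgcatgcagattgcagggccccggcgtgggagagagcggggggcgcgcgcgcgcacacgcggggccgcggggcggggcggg
Hspe1, chr1:55087898-55088197, plus strand: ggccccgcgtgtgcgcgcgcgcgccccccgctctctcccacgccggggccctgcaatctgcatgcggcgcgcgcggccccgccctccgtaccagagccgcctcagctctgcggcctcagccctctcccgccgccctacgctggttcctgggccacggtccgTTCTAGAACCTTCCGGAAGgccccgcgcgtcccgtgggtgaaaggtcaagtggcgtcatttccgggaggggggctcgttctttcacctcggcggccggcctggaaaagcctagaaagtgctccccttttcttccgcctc
Psmd4, chr3:95042565-95042864, minus strand: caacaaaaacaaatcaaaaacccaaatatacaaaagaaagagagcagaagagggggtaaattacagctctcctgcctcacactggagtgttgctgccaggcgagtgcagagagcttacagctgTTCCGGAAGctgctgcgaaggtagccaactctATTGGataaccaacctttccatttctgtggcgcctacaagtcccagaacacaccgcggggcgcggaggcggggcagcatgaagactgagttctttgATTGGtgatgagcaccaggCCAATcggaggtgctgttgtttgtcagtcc
Psmb3, chr11:97703184-97703483, plus strand: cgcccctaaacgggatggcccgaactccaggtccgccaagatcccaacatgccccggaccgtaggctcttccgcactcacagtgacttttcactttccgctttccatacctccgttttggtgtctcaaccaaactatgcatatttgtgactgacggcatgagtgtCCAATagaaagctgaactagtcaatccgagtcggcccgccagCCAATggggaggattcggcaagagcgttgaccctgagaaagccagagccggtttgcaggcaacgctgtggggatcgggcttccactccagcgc
Psmd13, chr7:140882144-140882443, plus strand: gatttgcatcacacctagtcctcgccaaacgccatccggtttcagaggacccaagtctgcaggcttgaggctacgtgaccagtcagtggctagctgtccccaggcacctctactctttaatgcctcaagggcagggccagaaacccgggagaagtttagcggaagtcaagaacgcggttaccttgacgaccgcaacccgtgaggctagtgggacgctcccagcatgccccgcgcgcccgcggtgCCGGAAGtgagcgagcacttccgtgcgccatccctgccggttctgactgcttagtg

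The capitals in Hspd1 and Hspe1 are a single stretch seen from both strands, in which TTCNNGAA, CCGGAAG and GAANNTTC overlap. TTCCGGAAG, which Psmd4 also holds, is a match to TTCNNGAA and to CCGGAAG with the same letters. In Psmb3 only CCAAT was matched and in Psmd13 only CCGGAAG. Over the 47 promoters, CCGGAAG was present in 44.7%, against 9.9% of the 27025 genes with a promoter, and the palindrome bound by NRF1 in 23.4% against 7.0%. CCAAT stood in 42.6% of the set and 41.1% of all genes. GAANNTTC stood in 8.5% against 9.0%, TTCNNGAA in 12.8% against 9.6%, the E-box CACGTG in 10.6% against 8.1%, and TGACNNNGC, the core of an antioxidant response element, in 19.1% against 14.0%. The 27025 genes outnumber the 11735 tested here, and no share among tested genes alone was drawn. Windows of 1 gene can overlap those of another, as here, and no test was made. A match describes these letters and no more.

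The members were compared between the genotype labels in each treatment and between treatments under each label. The 9 comparisons gave 18 calls on 12 members. 12 calls were lower and 6 higher, 2.38% and 1.19% of the 504 tests on members against 1.18% and 1.23% of the 105615 tests on all genes, and 44 of the 56 tested members were never called. A call is an adjusted p under 0.05 over 11735 tested genes in edgeR's quasi-likelihood test, and differences are log2 values ± SE.

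**Figure D1:**
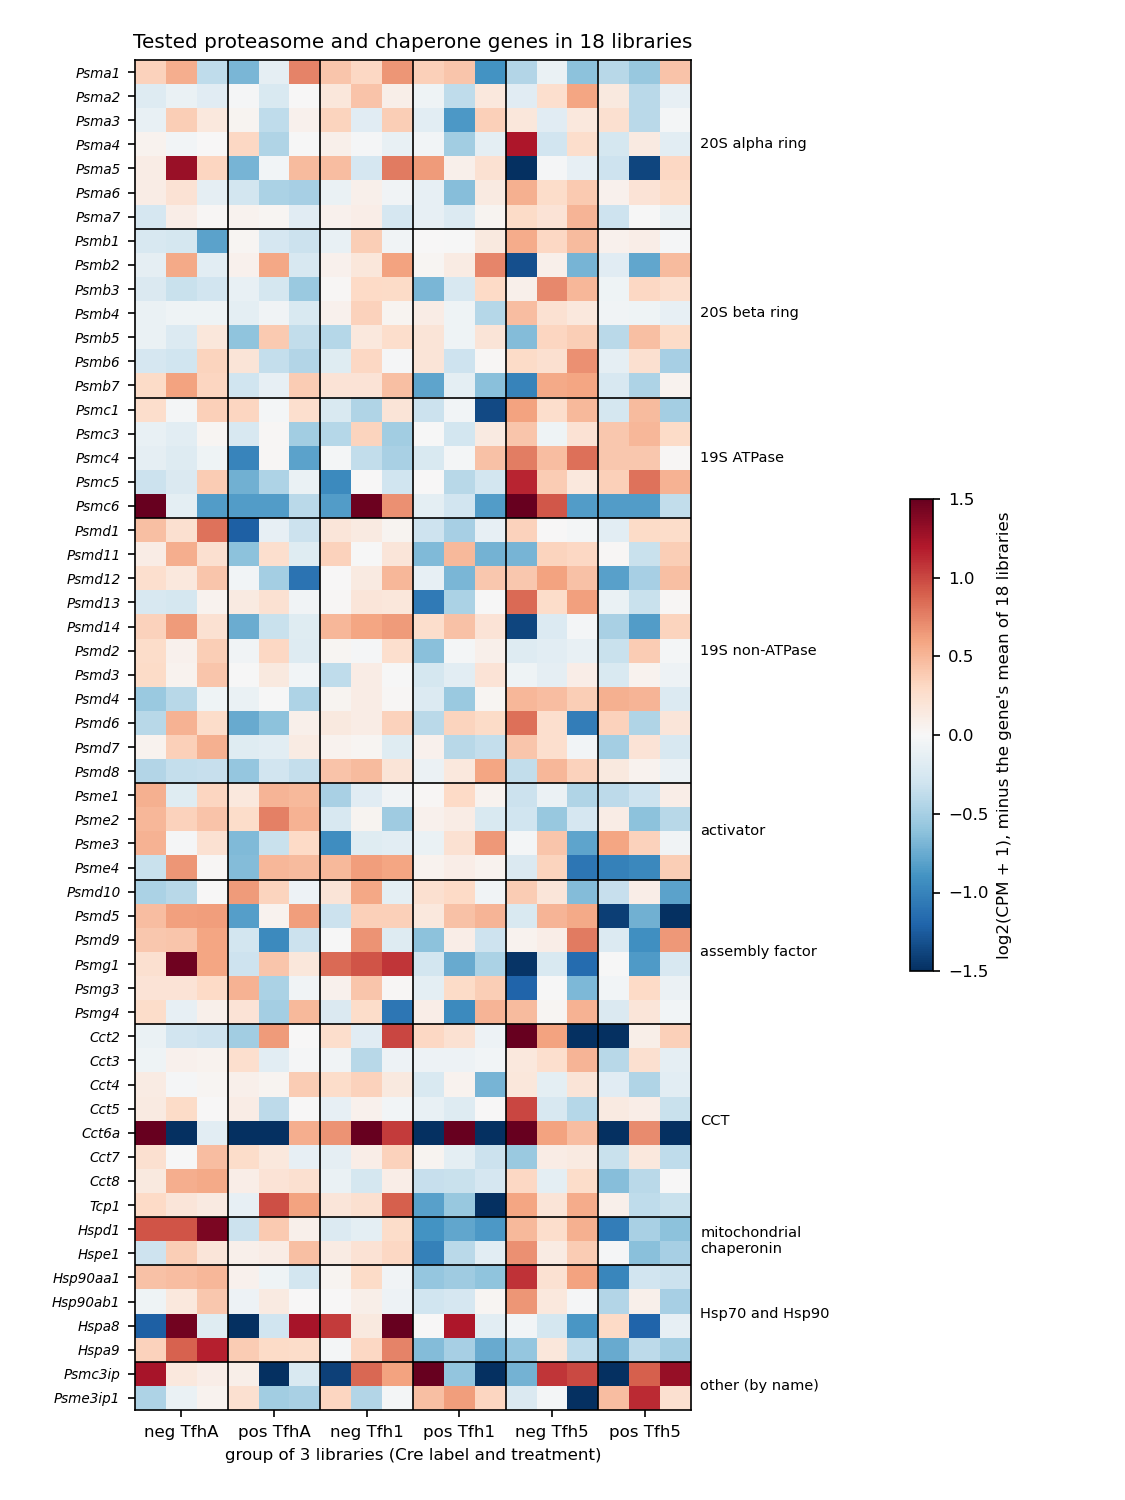
Level of the 56 tested members (rows, grouped by role) in 18 libraries (columns, 3 per group), as log2(CPM + 1) minus the mean of the gene over all libraries, with colours ending at 1.5 on either side. Hspd1 is red in all 3 Cre-negative TfhA libraries (169 to 233 CPM) and blue in all 3 Cre-positive Tfh1 libraries (46.6 to 50.6 CPM).

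Between the genotype labels, chaperone RNA was lower in Cre-positive libraries where a difference passed the test. In Tfh5, Hsp90aa1, Hspd1 and the assembly factor Psmd5 fell, 3 lower calls and 0 higher, against 2.05% and 1.19% of all tested genes. In Tfh1 only Hspa9, the mitochondrial Hsp70, fell, 1 lower call and 0 higher against 0.341% and 0.511%. In TfhA no member passed, as no gene did (0% lower, 0% higher), although 8 of 56 members and 606 of 11735 genes had an unadjusted p under 0.05. There DESeq2 called Hspd1 lower (-1.01, adjusted p = 0.0476), among 18 genes, and limma-voom called 0 members. The 56 members had a median difference of -0.17 (TfhA), -0.24 (Tfh1) and -0.30 (Tfh5), against 0.00, -0.02 and 0.00 over all tested genes. Differences below 0 made up 71.4%, 73.2% and 73.2% of the members, against 49.8%, 51.0% and 49.7% of all genes. With plain library sizes in place of TMM, all 3 member medians stayed below those of all genes (-0.53 against -0.33, -0.34 against -0.11 and -0.20 against 0.08), while the calls over all genes in Tfh5 went from 140 higher and 240 lower to 151 and 154, and in Tfh1 from 60 and 40 to 38 and 38. Genes of cell division moved beside them: the 29 tested genes of a proliferation list had medians of -0.36, -0.52 and -0.59, with 2 lower calls in Tfh5, and of the 9 T cell markers 2 rose in Tfh1 and 3 in Tfh5. The 1 tested B cell marker of 8 fell in Tfh1 and in Tfh5. The part of these in the chaperone results was not tested.

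Between treatments in Cre-negative libraries, the 5 called subunits of core and cap were higher, and Hspd1, Hspa9 and Psmg1 were lower where they were called. In Tfh5 against TfhA, Psmb1, Psmd4, Psmd13 and Psmb3 rose and Psmg1 and Hspa9 fell, 4 higher and 2 lower calls against 3.17% and 1.91% of all genes. In Tfh1 against TfhA, Psmd8 rose and Hspd1 fell, 1 call each way against 1.5% and 0.733%. In Tfh5 against Tfh1 no member passed (all genes 0.273% higher and 0.281% lower), 13 had an unadjusted p under 0.05 (1218 of 11735 genes), limma-voom called 0 and DESeq2 called 2, Psmc4 higher (0.97, adjusted p = 0.0319) and Psmg1 lower (-1.92, adjusted p = 0.0122). Psmc4 was named after its values were seen. These increases depend on the scaling. The 2 most abundant unnamed identifiers took 19.7% to 33.7% of the counts in Cre-negative TfhA and 36.8% to 43.0% in Cre-negative Tfh5, and their part in this was not tested beyond the fits given here. With plain library sizes and no TMM, the median of all genes in Tfh5 against TfhA moved from -0.09 to -0.64, the 4 increases kept their sign at 0.18 to 0.32 without passing, and 14 members were lower and 0 higher (all genes 810 lower and 143 higher, against 224 and 372 with TMM). The median of the 56 members was then -0.46, still above that of all genes, as it was with TMM (0.09 against -0.09). Leaving out both identifiers and keeping TMM gave 4 higher and 2 lower members. The split of all genes under that scaling also turned in Tfh1 against TfhA (64 higher and 337 lower, against 176 and 86), where Psmd8 had 0.31 (adjusted p = 0.507).

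Between treatments in Cre-positive libraries, Tcp1, Hspa9 and Hspd1 fell in Tfh1 against TfhA, 3 lower and 0 higher calls against 0.997% and 1.58% of all genes. Other markers moved in this comparison: the 1 tested B cell marker of 8 fell, with summed B cell markers at 7.12 to 31.4 CPM in TfhA and 0.0 to 0.163 in Tfh1, summed NK markers were at 6.94 to 14.1 and 0.0 to 2.61 CPM, 2 of 9 T cell markers rose, and the proliferation list had a median of -0.61 with 1 lower call. Their part in the falls was not tested. In Tfh5 against TfhA, Psmc5 rose and Hspa9 fell, 1 call each way against 2.39% and 3% of all genes. In Tfh5 against Tfh1 only Psmd5 fell, 1 lower and 0 higher against 1.32% and 0.435%. With plain library sizes, all genes split into 103 higher and 159 lower in Tfh1 against TfhA (185 and 117 with TMM). Comparisons that share a TfhA group share its 3 libraries, so their values are given side by side and are not independent.

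**Figure D2:**
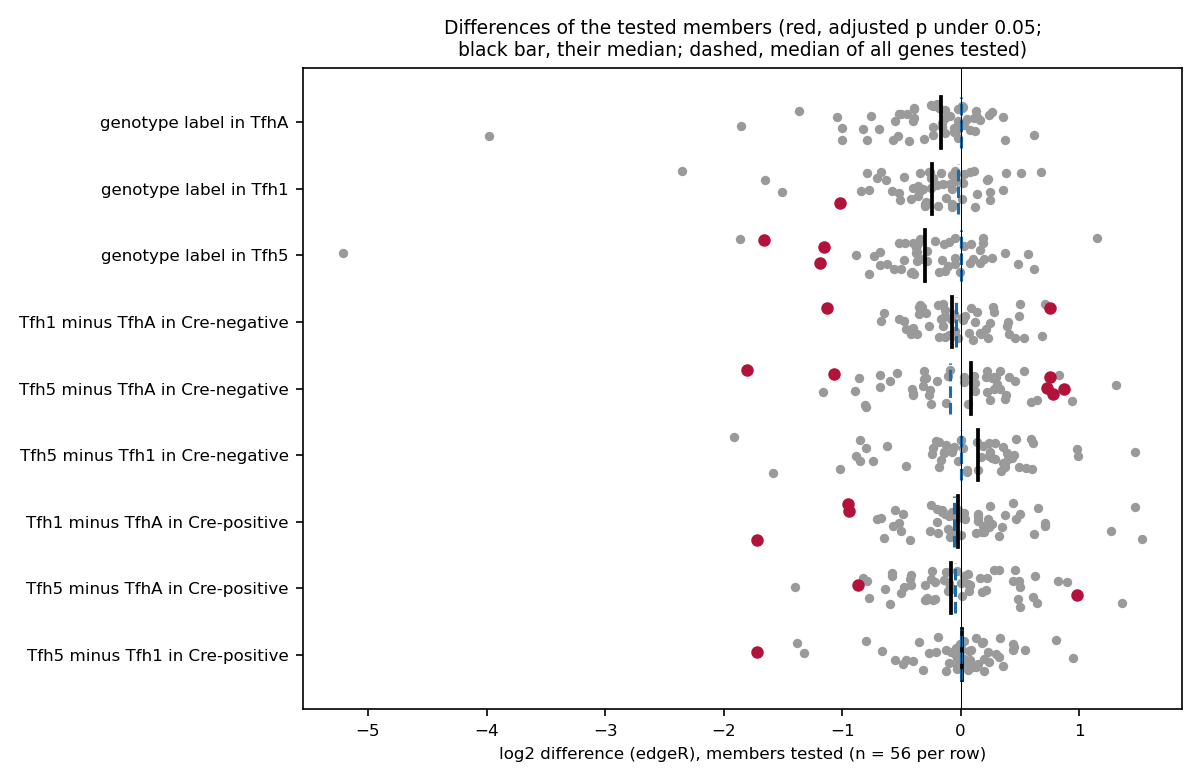
Log2 difference of the 56 tested members (points) in the 9 comparisons (rows), with called members in red, their median as a black bar and the median of all tested genes as a dashed line. The member median lies at -0.17, -0.24 and -0.30 in the genotype rows and at 0.09 in Tfh5 minus TfhA of Cre-negative libraries.

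The 20S core is built from alpha subunits, which gate entry, and beta subunits, of which Psmb5, Psmb6 and Psmb7 carry the chymotrypsin-like, caspase-like and trypsin-like sites. Psmb1, a structural beta subunit, was at 430, 425 and 292 CPM in Cre-negative TfhA, at 474, 659 and 492 in Tfh1, and at 751, 631 and 712 in Tfh5. Every Tfh5 library lay above every TfhA library. The rise from TfhA to Tfh5 was 1.83-fold (0.87 ± 0.18, adjusted p = 0.00188), and it held without each of the 6 libraries in turn (adjusted p up to 0.0345) but not with plain library sizes (0.32, adjusted p = 0.289). In Cre-positive libraries Psmb1 was at 521, 429 and 407 CPM in TfhA, 512, 510 and 565 in Tfh1 and 535, 546 and 503 in Tfh5, and the difference of Tfh5 from TfhA was 0.22 ± 0.18 (adjusted p = 0.591). The difference between those 2 differences was -0.65 ± 0.26 and did not pass (adjusted p = 0.28).

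Psmb3, another structural beta subunit, was at 219, 202 and 209 CPM in Cre-negative TfhA and at 268, 419 and 361 in Tfh5. The groups did not overlap, and the rise was 1.66-fold (0.73 ± 0.22, adjusted p = 0.0401). It was lost with the replicate number as a block (adjusted p = 0.0553), with the compared groups fitted alone (0.069), with plain library sizes (0.724), and without any of the 3 TfhA libraries or Tfh5 libraries 4 or 5 (adjusted p from 0.0942 to 0.212). Cre-positive libraries gave 235, 212 and 173 CPM in TfhA and 244, 317 and 303 in Tfh5, a difference of 0.48 ± 0.22 that did not pass (adjusted p = 0.237).

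The catalytic subunits did not pass in any comparison. Psmb5 had group means from 71.4 ± 27.6 to 87.1 ± 25.5 CPM (SD, n = 3), and its 6 groups overlapped. Psmb6 was at 144 to 197 CPM in the 3 Cre-negative Tfh5 libraries and 86.4 to 144 in the Cre-positive ones, a genotype difference of -0.52 ± 0.26 (adjusted p = 0.333). Psmb7 was at 110, 110 and 131 CPM in Cre-negative Tfh1 and 54.7, 86.4 and 61.5 in Cre-positive Tfh1. These did not overlap, yet the difference of -0.79 ± 0.30 missed the threshold (adjusted p = 0.32). None of the 7 tested alpha subunits was called in any comparison in edgeR either, while DESeq2 called Psma6, named after its values were seen, in Tfh5 against TfhA of Cre-positive libraries (0.61, adjusted p = 0.0413). All 7 alpha subunits had a genotype difference below 0 in Tfh1, with a median of -0.20 and a smallest adjusted p of 0.58.

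**Figure D3:**
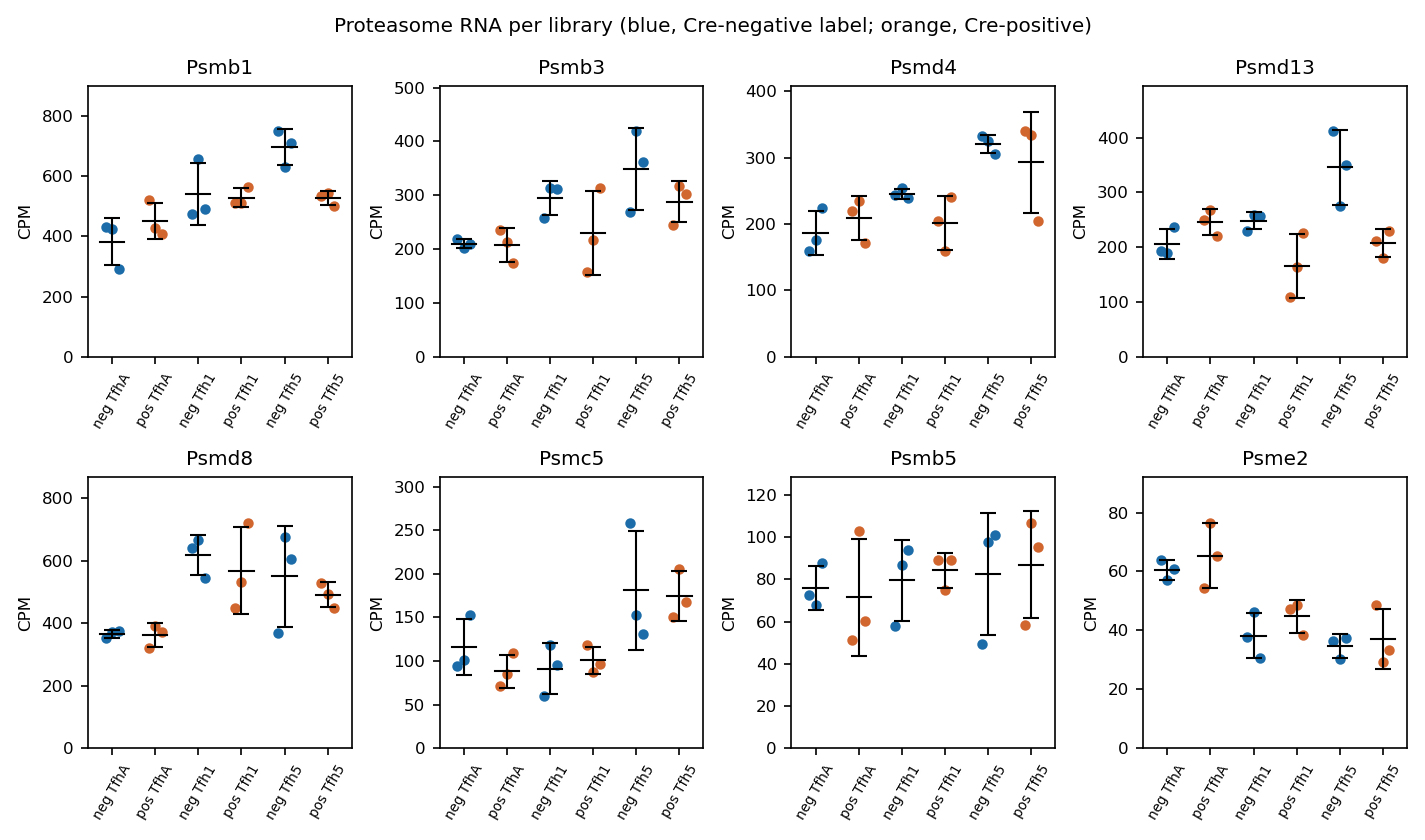
CPM of 8 proteasome genes in each library (points; blue, Cre-negative label; orange, Cre-positive), with the mean and SD of each group of 3. The 3 Cre-negative Tfh5 libraries of Psmb1 (631 to 751 CPM) lie above all 3 Cre-negative TfhA libraries (292 to 430 CPM), while the groups of Psmb5 overlap.

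In the 19S cap, Psmd4 (Rpn10) is a ubiquitin receptor, Psmd14 (Rpn11) removes the ubiquitin chain, Psmd8 (Rpn12) and Psmd13 (Rpn9) are structural subunits of the lid, and Psmc5 (Rpt6) is an ATPase. Psmd4 was at 159, 176 and 224 CPM in Cre-negative TfhA, 243, 254 and 239 in Tfh1, and 332, 325 and 305 in Tfh5. The 3 groups followed each other without overlap. The rise from TfhA to Tfh5 was 1.72-fold (0.78 ± 0.21, adjusted p = 0.0214), and it was lost without TfhA library 2 or 4 or Tfh5 library 4 (adjusted p from 0.0542 to 0.146). The step from TfhA to Tfh1 was 0.40 ± 0.21 (adjusted p = 0.461). In Cre-positive Tfh5 the libraries stood apart, at 340, 334 and 204 CPM, against 219, 235 and 171 in TfhA (0.49 ± 0.21, adjusted p = 0.205).

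Psmd13 was at 192, 189 and 237 CPM in Cre-negative TfhA and 412, 275 and 350 in Cre-negative Tfh5, without overlap, a 1.68-fold rise (0.75 ± 0.22, adjusted p = 0.0374). The call was lost without TfhA library 2 or 4 or Tfh5 library 2 or 5 (adjusted p from 0.0934 to 0.165) and with the compared groups fitted alone (0.074). Cre-positive Tfh5 libraries were at 212, 180 and 230 CPM, below all Cre-negative ones, and the genotype difference of -0.73 ± 0.22 fell short in edgeR (adjusted p = 0.0587) and passed in DESeq2 (adjusted p = 0.0397). The genotype difference of Tfh5 minus that of TfhA was -0.99 ± 0.31 for Psmd13, with the smallest adjusted p of any member in that contrast in edgeR (0.132), and DESeq2 called it (adjusted p = 0.038).

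Psmd8 was at 352, 372 and 376 CPM in Cre-negative TfhA and 641, 666 and 546 in Cre-negative Tfh1, a 1.68-fold rise (0.75 ± 0.20, adjusted p = 0.0317). The groups were far apart, but the call held only without Tfh1 library 5 among the 6 omissions, and without each other library the adjusted p ran from 0.0653 to 0.162. In Cre-positive libraries Psmd8 was at 320, 392 and 373 CPM in TfhA and 449, 533 and 722 in Tfh1. The difference of 0.65 ± 0.20 fell short in edgeR (adjusted p = 0.0723) and passed in DESeq2 (0.63, adjusted p = 0.0403). DESeq2 also called Psmd8 higher in Tfh5 against TfhA of Cre-negative libraries (0.59, adjusted p = 0.0474), where edgeR did not. Its 2 differences from TfhA to Tfh1 were thus of similar size, and the contrast between them was -0.10 ± 0.28 (adjusted p = 1.0).

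Psmc5 was at 70.9, 84.6 and 109 CPM in Cre-positive TfhA and 150, 206 and 168 in Cre-positive Tfh5, without overlap. The rise was 1.98-fold (0.98 ± 0.28, adjusted p = 0.0263), and it was lost without TfhA library 1 or 3 or Tfh5 library 3 (adjusted p from 0.0979 to 0.136) and with plain library sizes (adjusted p = 0.129). Cre-negative libraries were at 93.7, 101 and 153 CPM in TfhA and 259, 153 and 131 in Tfh5, which overlapped (0.64 ± 0.27, adjusted p = 0.22). The 6 ATPases form a single ring, of which Psmc2 was not tested and Psmc6 had only 228.25 counts. The 5 tested ATPases had median differences of Tfh5 from TfhA of 0.64 under the Cre-negative and 0.64 under the Cre-positive label. Psmc5 under the Cre-positive label was the only call among them in edgeR, and DESeq2 also called Psmc4 in Tfh5 against TfhA under the Cre-negative (0.84, adjusted p = 0.0352) and the Cre-positive label (0.82, adjusted p = 0.0393). Their summed level was 431 ± 50.0 and 361 ± 39.3 CPM in TfhA and 616 ± 120 and 565 ± 72.9 in Tfh5 (Cre-negative and Cre-positive, SD, n = 3), and plain library sizes gave 563 and 550 CPM in Cre-negative and 374 and 543 in Cre-positive TfhA and Tfh5. Leaving the 2 most abundant identifiers out of the plain library size gave 752 and 918 CPM in Cre-negative TfhA and Tfh5.

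Psmd14 passed in no comparison. It was at 98.5, 121 and 90.8 CPM in Cre-negative TfhA, 109, 117 and 121 in Tfh1 and 29.0, 66.7 and 75.6 in Tfh5. The Tfh5 libraries lay below both other groups, by -0.86 ± 0.31 against TfhA (adjusted p = 0.117) and -1.02 ± 0.31 against Tfh1 (adjusted p = 0.136). In Cre-positive TfhA it was at 45.7, 61.2 and 68.0 CPM, below all Cre-negative TfhA libraries (-0.82 ± 0.31, adjusted p = 0.786).

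Over the 30 tested subunits of core and cap, 4 were higher and 0 lower in Tfh5 against TfhA of Cre-negative libraries, against 3.17% and 1.91% of all genes. The median of the 30 differences was 0.27 where all genes had -0.09. In the other treatment comparisons of either label the median was 0.00 to 0.19. Their summed level per library was 4865, 5163 and 5216 CPM in Cre-negative TfhA, 5431, 6124 and 5489 in Tfh1 and 6379, 6257 and 6639 in Tfh5. Under the Cre-positive label the sums were 4668, 4815 and 4578 CPM in TfhA, 4755, 4643 and 5528 in Tfh1 and 5199, 5457 and 5273 in Tfh5. The sum was highest in Cre-negative Tfh5, which overlapped no other group. In both genotypes the Tfh5 sums lay above those of TfhA on the TMM scale, but with plain library sizes the median of the 30 differences was -0.28 in Cre-negative and -0.02 in Cre-positive libraries.

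**Figure D4:**
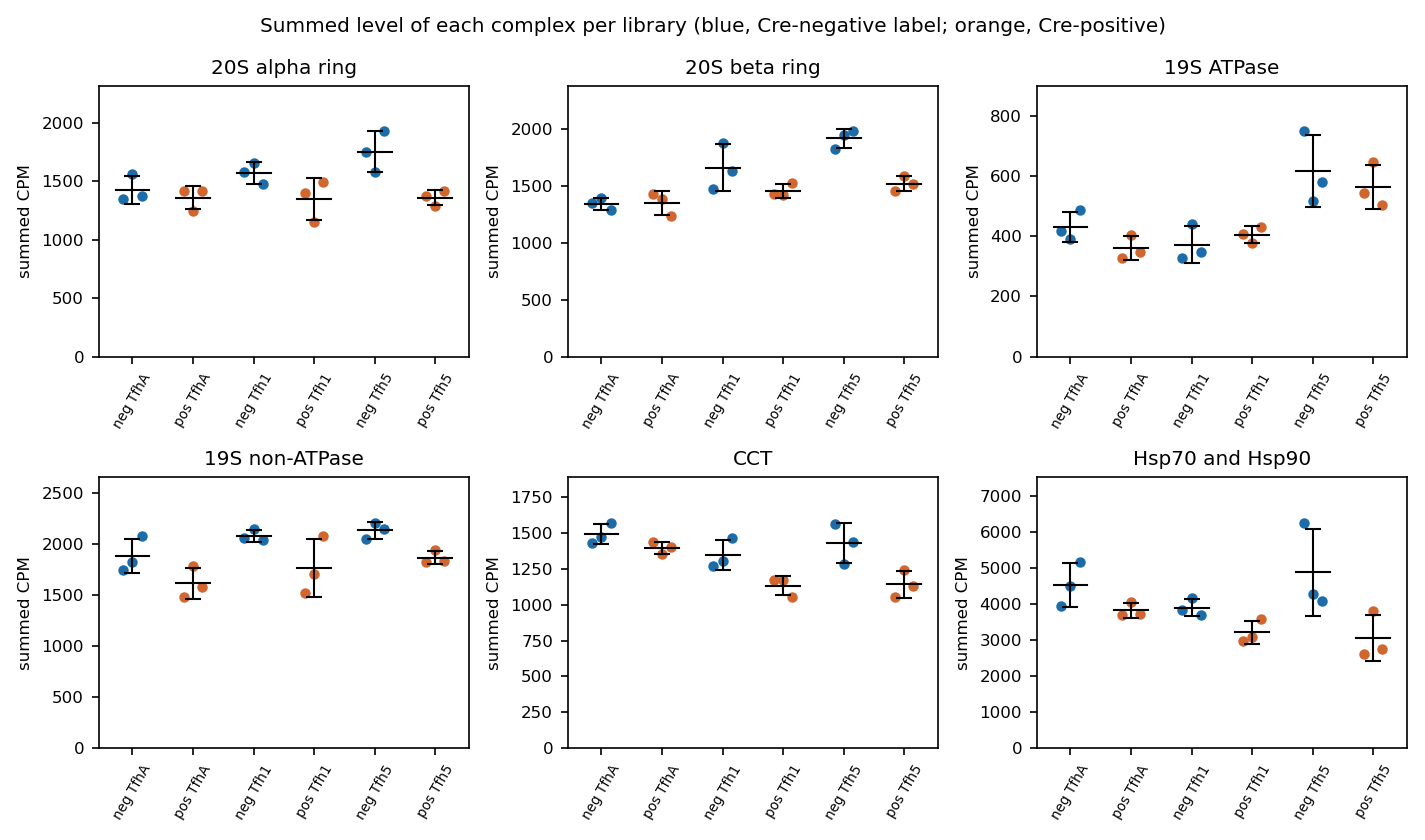
Summed CPM of 6 groups of members in each library (points; blue, Cre-negative label; orange, Cre-positive), with the mean and SD of each group of 3 libraries. The beta ring is at 1828 to 1985 CPM in Cre-negative Tfh5 and at 1287 to 1392 in Cre-negative TfhA on this TMM scale, while plain library sizes put the 2 means at 1703 and 1753, and at 2865 and 2341 once 2 abundant unnamed identifiers are left out of the size.

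The activators Psme1 and Psme2, which form the ring PA28 that interferon induces, were at their highest in TfhA. Psme2 was at 64.0, 57.2 and 60.7 CPM in Cre-negative TfhA, 37.8, 46.1 and 30.7 in Tfh1 and 36.4, 30.1 and 37.5 in Tfh5. The TfhA libraries lay above all others of that label, but neither difference passed (-0.67 ± 0.32, adjusted p = 0.392, and -0.81 ± 0.32, adjusted p = 0.172). In Cre-positive libraries the same gene was at 54.4, 76.6 and 65.1 CPM in TfhA and 48.5, 29.1 and 33.4 in Tfh5 (-0.82 ± 0.32, adjusted p = 0.148). For Psme1 the difference of Tfh5 from TfhA was -0.54 ± 0.24 under the Cre-negative (adjusted p = 0.244) and -0.58 ± 0.24 under the Cre-positive label (adjusted p = 0.177). Psme3, the nuclear activator PA28γ, had group means from 50.8 ± 14.3 to 83.0 ± 18.4 CPM (SD, n = 3) and passed nowhere. On plain library sizes the summed activators went the same way, from 415 to 201 CPM between Cre-negative TfhA and Tfh5. That scaling also lowered the median of all genes in this comparison, from -0.09 to -0.64.

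Of the assembly factors, Psmd5 holds ATPases of the cap base before they join the core and Psmg1 forms with Psmg2 the chaperone of the alpha ring. Psmd5 was at 8.46, 14.2 and 6.20 CPM in Cre-positive Tfh5, below each of the other 5 groups except for 1 library at 13.2 in Cre-positive TfhA. Against Cre-negative Tfh5, at 20.5, 34.8 and 36.3 CPM, it fell 3.17-fold (-1.66 ± 0.46, adjusted p = 0.0362), and against Cre-positive Tfh1, at 27.0, 33.1 and 34.8 CPM, 3.29-fold (-1.72 ± 0.46, adjusted p = 0.0449). The contrasts share the 3 low libraries. The first call was lost without Cre-negative library 4 or 5 or Cre-positive library 1 or 6 (adjusted p from 0.0946 to 0.177) with limma-voom (0.144), plain library sizes (0.0949) and the compared groups fitted alone (0.254). The second was lost with the replicate number as a block (adjusted p = 0.0551) and without any of the 6 libraries but Cre-positive Tfh5 library 3 (adjusted p from 0.0641 to 0.197), and also with RLE size factors, limma-voom, plain library sizes or the compared groups alone (0.0503 to 0.183).

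Psmg1 was at 21.9, 51.9 and 28.2 CPM in Cre-negative TfhA and 5.96, 15.5 and 7.69 in Cre-negative Tfh5, without overlap. It fell 3.49-fold (-1.80 ± 0.51, adjusted p = 0.0271), and the call was lost without TfhA library 4 or 5 or Tfh5 library 2 or 5 (adjusted p from 0.0622 to 0.297) with limma-voom (0.0606) and with the compared groups fitted alone (0.0808). In Cre-positive libraries the group means were 20.1 ± 5.14, 12.8 ± 2.30 and 14.5 ± 4.34 CPM (SD, n = 3) in TfhA, Tfh1 and Tfh5, with no call. The fall in Cre-negative Tfh5 came with a rise of 4 core and cap subunits in the same libraries. The summed assembly factors were at 258, 277 and 281 CPM in Cre-negative TfhA and 204, 242 and 226 in Tfh5.

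The CCT ring holds 8 different subunits, and Tcp1, its subunit alpha, was the only 1 called. Tcp1 was at 28.5, 61.9 and 48.0 CPM in Cre-positive TfhA and 17.3, 20.7 and 3.91 in Cre-positive Tfh1, without overlap. It fell 3.30-fold (-1.72 ± 0.45, adjusted p = 0.0244), and the call was lost without TfhA library 3 or 6 or Tfh1 library 6 (adjusted p from 0.0728 to 0.164) and with the compared groups fitted alone (0.13). In Cre-negative libraries Tcp1 was at 38.6, 35.4 and 34.2 CPM in TfhA and 35.6, 37.1 and 58.6 in Tfh1 (0.28 ± 0.43, adjusted p = 0.958). The genotype difference in Tfh1, -1.65 ± 0.45, fell short in edgeR (adjusted p = 0.0722) and passed in DESeq2 (adjusted p = 0.0267). The difference between the TfhA and Tfh1 genotype differences was -2.0 ± 0.62 (adjusted p = 0.32).

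In Tfh5 all 8 CCT subunits had a genotype difference below 0, with a median of -0.44, but none passed and the smallest adjusted p was 0.229. In Tfh1 it was 7 of 8 with a median of -0.27, and in TfhA 4 of 8 with a median of -0.06. The summed level of the ring was 1566, 1286 and 1441 CPM in Cre-negative Tfh5 against 1053, 1243 and 1128 in Cre-positive Tfh5, which did not overlap. In Tfh1 the sums were 1272, 1305 and 1465 against 1170, 1170 and 1054 CPM, also without overlap. Both orders of the means were kept with plain library sizes, at 1273 against 1100 CPM in Tfh5 and 1313 against 1032 in Tfh1. The tubulins and actins that CCT folds had 0 calls among 7 tested genes in every comparison in edgeR, with a median genotype difference of -0.56 in Tfh5. The 10 cofactors of the ring, prefoldin among them, had a median of -0.15 there with 0 calls.

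Of the mitochondrial chaperonin, Hspd1 gave 3 of the 18 calls and Hspe1 none. Hspd1 was at 169, 169 and 233 CPM in Cre-negative TfhA, 75.8, 78.7 and 106 in Tfh1 and 123, 105 and 127 in Tfh5. In Cre-positive libraries it was at 69.8, 115 and 92.0 CPM in TfhA, 46.6, 50.6 and 47.7 in Tfh1 and 41.9, 62.1 and 56.6 in Tfh5. Cre-negative TfhA stood above every other library of the series. From TfhA to Tfh1 it fell 2.19-fold in Cre-negative (-1.13 ± 0.25, adjusted p = 0.00781) and 1.91-fold in Cre-positive libraries (-0.94 ± 0.26, adjusted p = 0.0356). The Tfh5 libraries also lay below all TfhA libraries of the same label, without a call in edgeR. DESeq2 called that fall in Cre-positive libraries (-0.79, adjusted p = 0.0312) and not in Cre-negative ones.

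Between the genotype labels Hspd1 fell 2.21-fold in Tfh5 (-1.15 ± 0.26, adjusted p = 0.00585), and in TfhA and Tfh1, where the libraries did not overlap either, the differences of -1.04 ± 0.25 (adjusted p = 0.208) and -0.84 ± 0.26 (adjusted p = 0.131) did not pass in edgeR and passed in DESeq2 (adjusted p = 0.0476 and 0.0465). The Tfh5 call was lost without Cre-positive library 1 (adjusted p = 0.0583), with plain library sizes (0.0506) and with the 6 Tfh5 libraries fitted alone (0.107). The call of Tfh1 against TfhA was lost in Cre-negative libraries without TfhA library 5 or Tfh1 library 2 or 4 (adjusted p from 0.0689 to 0.139). In Cre-positive libraries it was lost without any of the 6 libraries but TfhA library 1 (adjusted p from 0.0828 to 0.258), with limma-voom (0.0529), without the filter on low counts (0.0539) and with the compared groups fitted alone (0.0859). The genotype differences of Hspd1 in the 3 treatments did not differ from each other by the test (adjusted p = 1.0, 1.0 and 0.974).

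Hspe1, whose window overlaps the one printed for Hspd1, had no call, and whether its changes differ from those of Hspd1 was not tested. In Cre-negative libraries it was at 150, 240 and 211 CPM in TfhA, 203, 217 and 231 in Tfh1 and 299, 202 and 243 in Tfh5, and these groups overlapped. In Cre-positive libraries it was at 196, 201 and 255 CPM in TfhA, 92.0, 140 and 167 in Tfh1 and 184, 120 and 132 in Tfh5. Its genotype difference was 0.12 ± 0.23 in TfhA, -0.71 ± 0.23 in Tfh1 (adjusted p = 0.199) and -0.77 ± 0.23 in Tfh5 (adjusted p = 0.0619), where DESeq2 called it (adjusted p = 0.0474). The change in that difference from TfhA to Tfh5, -0.89 ± 0.33, did not pass (adjusted p = 0.236). The ratio of Hspd1 to Hspe1 counts, which can be compared between libraries but is no ratio of molecules, was 0.978 ± 0.236 in Cre-negative TfhA (SD, n = 3; lowest 0.705). In the other 5 groups its mean was 0.384 to 0.485, and the highest library was at 0.573. This ratio was singled out after the values were seen, and both genes had fractional counts in all 18 libraries.

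**Figure D5:**
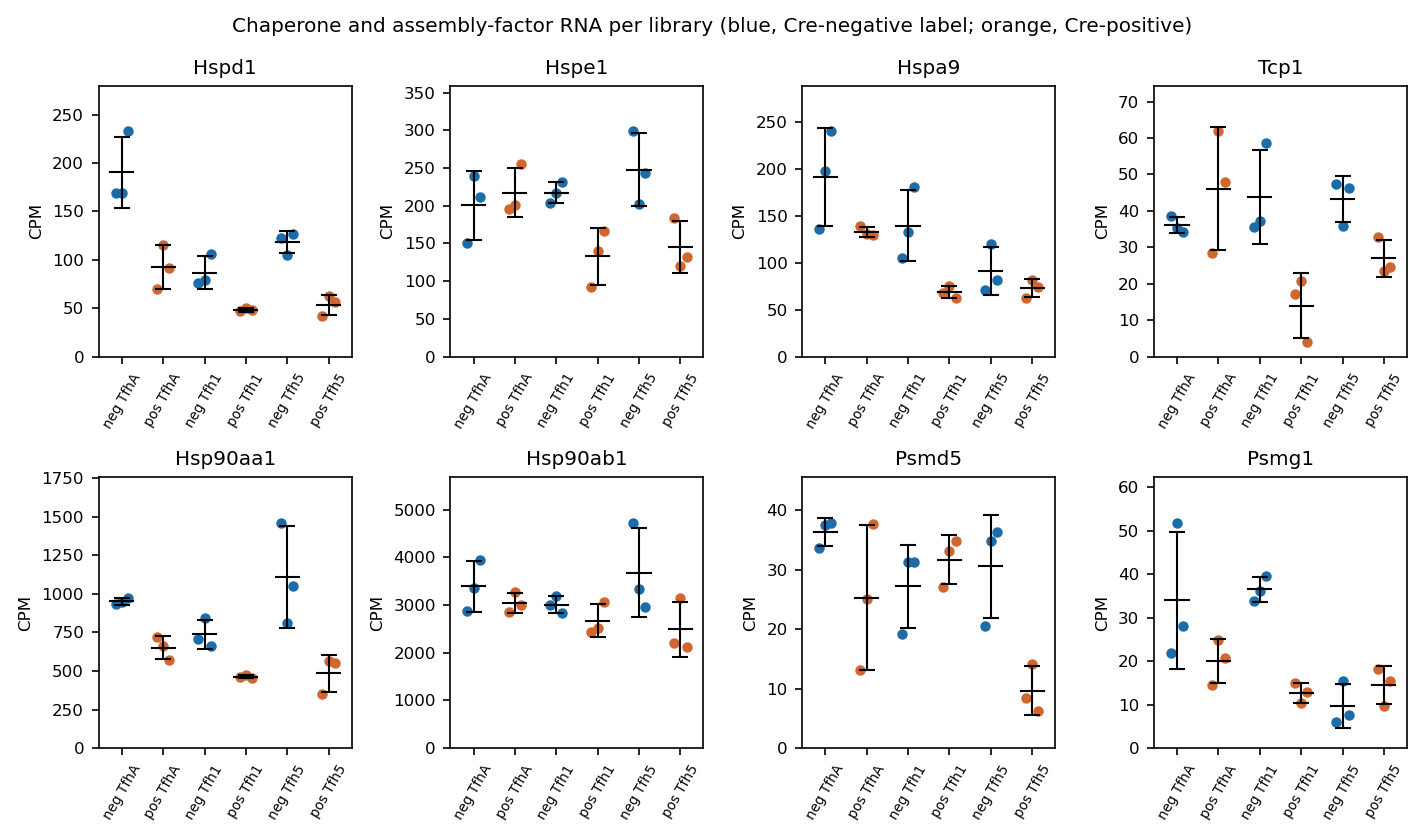
CPM of 6 chaperone genes and 2 assembly factors in each library (points; blue, Cre-negative label; orange, Cre-positive), with the mean and SD of each group of 3. Hspd1 is at 169 to 233 CPM in Cre-negative TfhA and at or below 127 CPM elsewhere, and Hsp90aa1 is at 809 to 1462 CPM in Cre-negative Tfh5 and at 348 to 562 in Cre-positive Tfh5.

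Hspa9, the mitochondrial Hsp70 (mortalin) that pulls proteins through the import channel, had 4 of the 18 calls, all lower. It was at 136, 198 and 240 CPM in Cre-negative TfhA, 105, 133 and 180 in Tfh1 and 70.8, 120 and 82.0 in Tfh5. In Cre-positive libraries it was at 139, 130 and 129 CPM in TfhA, 67.6, 75.6 and 62.8 in Tfh1 and 62.6, 81.4 and 74.4 in Tfh5. TfhA had the highest mean under either label. From TfhA to Tfh5 it fell 2.10-fold in Cre-negative (-1.07 ± 0.26, adjusted p = 0.00738) and 1.82-fold in Cre-positive libraries (-0.87 ± 0.26, adjusted p = 0.037). From TfhA to Tfh1 it fell 1.93-fold in Cre-positive libraries (-0.95 ± 0.26, adjusted p = 0.0342), while in Cre-negative ones the groups overlapped (-0.46 ± 0.25, adjusted p = 0.482). All 3 of these calls also passed with plain library sizes. That scaling lowered the median of all genes from -0.09 to -0.64 in Cre-negative Tfh5 against TfhA. In Cre-positive libraries it lowered it from -0.05 to -0.16 (Tfh5) and from -0.06 to -0.24 (Tfh1). Passing with plain library sizes is therefore no separate support for a fall.

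In Tfh1, Cre-positive libraries had 2.03-fold less Hspa9 than Cre-negative ones (-1.02 ± 0.26, adjusted p = 0.0429). This call was lost without Cre-negative library 4 or 5 or any Cre-positive library (adjusted p from 0.0768 to 0.376), with limma-voom (0.0819) and with plain library sizes (0.0572). The Cre-negative fall from TfhA to Tfh5 was lost without TfhA library 5 (adjusted p = 0.104) and with the compared groups fitted alone (0.0591). Both Cre-positive falls were lost without any single library (adjusted p from 0.0615 to 0.143 for Tfh1 and from 0.0525 to 0.16 for Tfh5).

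Hsp90aa1, the stress-inducible cytosolic Hsp90, was the member with the smallest adjusted p. It was at 931, 949 and 971 CPM in Cre-negative TfhA, 707, 842 and 665 in Tfh1 and 1462, 809 and 1050 in Tfh5. In Cre-positive libraries it was at 718, 659 and 570 CPM in TfhA, 460, 476 and 454 in Tfh1 and 348, 562 and 549 in Tfh5. In each treatment the Cre-positive libraries lay below all Cre-negative ones. In Tfh5 it fell 2.28-fold (-1.19 ± 0.20, adjusted p = 0.000188). The call held without each library in turn, and without Cre-negative library 2, which was also the highest library of Hsp90ab1, the difference was -0.93 (adjusted p = 0.00207). It was lost when the 6 Tfh5 libraries were fitted alone (adjusted p = 0.0632). In TfhA and Tfh1 the differences were -0.55 ± 0.19 (adjusted p = 0.741) and -0.67 ± 0.19 (adjusted p = 0.106), and DESeq2 called the second (adjusted p = 0.0296). The genotype difference in Tfh5 did not differ by the test from that in TfhA (-0.64 ± 0.27, adjusted p = 0.34).

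Hsp90ab1, the constitutive partner of Hsp90aa1, was at 4726, 3339 and 2965 CPM in Cre-negative Tfh5 and 2199, 3150 and 2122 in Cre-positive Tfh5. These overlapped, and the difference of -0.56 ± 0.17 missed the threshold in edgeR (adjusted p = 0.0638) and passed in DESeq2 (adjusted p = 0.0456). In the other 4 groups its means ran from 2671 ± 344 to 3386 ± 540 CPM (SD, n = 3). The ratio of Hsp90aa1 to Hsp90ab1 counts was 0.302 ± 0.0562 in Cre-negative and 0.198 ± 0.0532 in Cre-positive Tfh5, 0.245 ± 0.0168 and 0.176 ± 0.0237 in Tfh1, and 0.285 ± 0.0393 and 0.214 ± 0.0332 in TfhA. It was highest in Cre-negative libraries in each treatment by the mean, with overlap in TfhA and Tfh5. Hspa8 was at 0.183 to 23.0 CPM over the 18 libraries, which is too few counts to rank its groups (smallest adjusted p of its differences 0.643).

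Neighbouring pathways were read from lists of other genes. The shares of all genes called in each comparison are those given above, and no list was tested as a set. Of the 8 genes of the immunoproteasome and peptide loading, 2 fell and 0 rose in Tfh5 against TfhA under each label. Of all genes, 1.91% were lower and 3.17% higher there under the Cre-negative label, and 3% and 2.39% under the Cre-positive label. Psmb9 (beta 1i) fell from 150 ± 68.5 to 37.2 ± 20.6 CPM in Cre-negative libraries (-2.01 ± 0.49, adjusted p = 0.0187), where its constitutive counterpart Psmb6 had 0.46 ± 0.26. Psmb8 (beta 5i) fell from 402 ± 54.2 to 162 ± 44.7 CPM in Cre-positive libraries (-1.32 ± 0.21, adjusted p = 4.33e-05), where its counterpart Psmb5 had 0.28 ± 0.30 (adjusted p = 0.736). Whether each pair differs in its change was not tested. Between the genotype labels in Tfh5, Tapbp, the peptide-loading factor tapasin, rose from 107 ± 21.3 to 241 ± 36.1 CPM (1.17 ± 0.25, adjusted p = 0.0033).

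Of the 29 tested genes of the ubiquitin and p97 list, 3 rose in Tfh5 against TfhA of Cre-positive libraries and 0 fell, with a median of -0.05. Ufd1, a cofactor of p97, was among them (25.1 ± 9.98 to 75.4 ± 9.93 CPM, 1.58 ± 0.34, adjusted p = 0.00239). In Cre-negative libraries 2 rose in that comparison, and in Tfh1 against TfhA 1 did, Rps27a, which encodes ubiquitin fused to a ribosomal protein (0.71 ± 0.19, adjusted p = 0.0304). Between the genotype labels 3 of the 29 fell in Tfh5. Pfdn5, a prefoldin subunit that hands actin and tubulin to CCT, rose from 160 ± 17.7 to 322 ± 39.1 CPM from TfhA to Tfh5 in Cre-negative libraries (1.0 ± 0.20, adjusted p = 0.00123), 1 of 10 cofactors.

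Of 19 genes of mitochondrial import and quality control, 1 fell and 0 rose from TfhA to Tfh5 under each label, with medians of -0.38 and -0.40 beside the Hspa9 falls. Lonp1, the matrix protease, fell from 134 ± 50.3 to 34.2 ± 6.25 CPM in Cre-positive libraries (-1.97 ± 0.30, adjusted p = 1.98e-05), and Tomm40, the pore of the outer membrane, from 48.4 ± 10.4 to 13.4 ± 2.95 CPM in Cre-negative ones (-1.85 ± 0.46, adjusted p = 0.0112). Of 14 tested chaperones of the endoplasmic reticulum, Hspa5 rose from Tfh1 to Tfh5 in Cre-negative libraries (231 ± 44.9 to 480 ± 80.5 CPM, 1.06 ± 0.20, adjusted p = 0.00335), Canx fell between the labels in Tfh5 (-0.89 ± 0.23, adjusted p = 0.02) and Hsp90b1 fell from TfhA to Tfh5 in Cre-positive libraries (-0.89 ± 0.27, adjusted p = 0.0464).

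Among 26 tested co-chaperones and further Hsp70 and Hsp90 genes, Bag1, a nucleotide exchange factor of Hsp70, rose between the labels in Tfh5 (49.0 ± 18.2 to 109 ± 17.0 CPM, 1.15 ± 0.32, adjusted p = 0.0364), in the comparison where Hsp90aa1 and Hspd1 fell. Hspa4 rose from TfhA to Tfh5 in Cre-positive libraries (0.75 ± 0.23, adjusted p = 0.0425), and Dnaja1, a J-domain partner of Hsp70, from Tfh1 to Tfh5 (1.04 ± 0.26, adjusted p = 0.0245). The 14 tested regulators of proteasome and heat shock genes, such as Nfe2l1, Hsf1 and Myc, had 0 calls in any comparison in edgeR and medians from -0.19 to 0.03 in the 9 comparisons. On the proliferation list, Top2a fell from TfhA to Tfh1 in Cre-positive libraries (534 ± 98.4 to 254 ± 39.7 CPM, adjusted p = 0.00318), Rrm1 from TfhA to Tfh1 in Cre-negative libraries (122 ± 23.5 to 55.1 ± 5.44 CPM, adjusted p = 0.0152), and Mcm4 from TfhA to Tfh5 in those (77.6 ± 8.60 to 13.0 ± 5.57 CPM, adjusted p = 0.00102). Each of these falls is in a comparison in which Hspd1 or Hspa9 fell, and their relation was not tested.

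Whether the genotype difference itself changed between treatments was tested for every member, and none passed in edgeR. For Tfh1 minus TfhA, 6 of 56 members and 826 of 11735 genes had an unadjusted p under 0.05, DESeq2 and limma-voom called 0, and 0.102% of all genes were higher and 0.136% lower. For Tfh5 minus TfhA, 6 members and 1284 genes had such a p, DESeq2 called Psmd13 and limma-voom 0, and 0.332% of all genes were higher and 0.861% lower. For Tfh5 minus Tfh1, 3 members and 992 genes had such a p, both other tools called 0, and 0% of all genes were higher and 0.0597% lower. A member called under 1 treatment and not under another is therefore not shown to differ between them.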

How the data were processed

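The deposited table holds expected counts: per the submitters' processing notes, the authors aligned with STAR 2.7.2b to mm10 and counted with featureCounts 1.6.4, and the deposited counts are partly fractional (11.7% to 18.1% of all listed genes per library), so they were rounded to whole numbers before each fit. Whole counts had been assumed when the tests were chosen. Of 27179 genes, 25275 had a symbol. Genes with few counts were removed by filterByExpr, leaving 11735. A robust quasi-likelihood model with 1 mean per group was fitted to all 18 libraries in edgeR 4.0.16 (R 4.3.3) with TMM factors (0.83 to 1.39) and Benjamini-Hochberg adjustment at 0.05. The SE is the log2 difference divided by the square root of F. Means ± SD are over 3 libraries, given as CPM.

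The members and lists were chosen with earlier results of these data known. Genes named in the text are up to 8 called members per comparison, 15 fixed members whether called or not, and up to 3 called genes of each other list; others are named as chosen after their values were seen. DESeq2 1.42.0, limma 3.58.1 (voom), other size factors, no filter, a replicate block, the compared groups alone and the omission of each library were alternatives. The fit with plain library sizes was added after seeing the data. The fit was also run on simulated counts in which some genes were changed by a known fold in a single group. Every other gene was drawn from the same profile in all libraries, so that run cannot speak to the dependence on scaling. Whether replicate numbers pair the libraries could not be decided, and the main fit holds no pairing.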

Additional observations from a re-analysis of the deposited data

How the results depend on the processing

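Of 248 comparisons of single calls with an alternative, 156 kept the call, 92 kept the direction but missed the threshold, and 0 reversed. DESeq2 called 1 member in TfhA, 4 in Tfh1 and 6 in Tfh5 between the genotype labels, 2 in Tfh5 against Tfh1 of Cre-negative libraries, 6 in Tfh5 against TfhA of Cre-positive libraries, and 1 in the change of the genotype difference from TfhA to Tfh5. Of all genes DESeq2 called 18 between the labels in TfhA, and its totals in the other comparisons are not given here. A change in the count of members between settings, here and below, can therefore not be read as particular to the members. Limma-voom called 0 between the labels in Tfh1 and 0 in Tfh5 against Tfh1 of Cre-positive libraries, where RLE size factors also gave 0. Without the filter on low counts, 2 were called between the labels in Tfh1 and 2 in Cre-negative Tfh5 against Tfh1. With the compared groups fitted alone, the counts were 2 in Tfh1 and 0 in Tfh5 between the labels, 3 in Cre-negative Tfh5 against TfhA, 1 in Cre-positive Tfh1 against TfhA and 0 in Cre-positive Tfh5 against Tfh1. With plain library sizes, an alternative chosen after seeing the data, they were 0 in Tfh1 and 1 in Tfh5 between the labels, 14 in Cre-negative Tfh5 against TfhA, and 1 and 0 in Cre-positive Tfh5 against TfhA and Tfh1. Of 132 class sums, 91 moved by over 1 SD under another scaling. Leaving out 1 library gave 0 to 0, 0 to 1 and 2 to 5 calls between the labels in TfhA, Tfh1 and Tfh5. In Tfh1 against TfhA, Tfh5 against TfhA and Tfh5 against Tfh1 it gave 0 to 2, 2 to 5 and 0 to 1 calls under the Cre-negative and 0 to 2, 1 to 3 and 0 to 1 under the Cre-positive label, and 0 in the 3 contrasts of genotype differences. Libraries with the same replicate number correlated at -0.0373 to 0.0662 in their deviations from the group means. Libraries with different numbers correlated at -0.0622 to 0.0471. These ranges overlap near 0, so they cannot decide whether a number marks libraries of a shared origin. With the number as a replicate block, the counts were 2, 5 and 0 in Cre-negative and 3, 2 and 0 in Cre-positive libraries in that order, and the block ended the calls of Psmb3 (0.71, adjusted p = 0.0553) and Psmd5 (-1.73, adjusted p = 0.0551). The causes of these changes were not tested. Low totals limit Psmc6, Cct6a and Hspa8.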
